A study of Mus musculus with 4 samples.

Results

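The genes described here encode the basement membrane and the integrins and other receptors that hold epithelial cells to it. The members are 36 named genes, taken by symbol with no threshold on a measured value, out of 55487 genes listed for each library. They were chosen with earlier results of these data known. They comprise 10 laminin chains, 6 collagen IV chains, 5 nidogens, proteoglycans and collagen XVIII, 6 hemidesmosome proteins and other laminin receptors, 5 integrin alpha subunits and 4 integrin beta subunits. Of the 36, 29 passed the filter on low counts and were tested, among 17155 genes tested in all.

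Mouse small intestinal (SI) organoids, crypt-derived epithelial cultures embedded in Matrigel and fed IntestiCult medium, were infected with a lentivirus that carried either a miRNA mimic control or a miR-181a-5p mimic. RNA-seq gave 4 libraries, control replicates 1 and 2 and mimic replicates 3 and 4, with between 31104884 and 38111731 expected counts each. All 4 shared lentiviral infection and puromycin selection at 2 μg/ml, so each group is a selected, stably infected culture, and no uninfected culture was part of this comparison. The labels give neither the strain and age of the donor mice nor whether replicates were infected separately, so p-values measure the spread between these libraries, which may be technical. For any 1 gene, the smallest p that an exact permutation test over 2 against 2 libraries allows is 0.333. The mature miRNA itself is not measured by these libraries, which hold transcripts of genes.

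The basement membrane is a thin sheet of secreted protein on which the intestinal epithelium rests. Laminin trimers, each of an alpha, a beta and a gamma chain, polymerize at the cell surface, collagen IV forms a second and cross-linked network, and nidogens and the proteoglycans perlecan and agrin join them. Epithelial cells hold on through integrins, each a pair of an alpha and a beta subunit, through dystroglycan and through hemidesmosomes, in which plectin and dystonin connect an integrin to keratin filaments. In the intestine much collagen IV is made by mesenchymal and endothelial cells, and laminin chains by the epithelium and the mesenchyme together.

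Both chains of the most widespread collagen IV trimer, Col4a1 and Col4a2, rose from a few counts per library to just under 1 TPM, the measure of level that is scaled by transcript length. The laminin beta chain Lamb1, perlecan (Hspg2) and the collagen-binding integrin subunit Itga1 fell. The receptors present at the highest levels, among them Itga6, Dag1 and Itgb1, did not pass edgeR's quasi-likelihood test in either direction, although Itga6 passed in 4 of 14 alternative settings.

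The miRNA that the lentivirus supplied is shown first, because the sequence of its seed sets which letters were looked for in the members. Its mature sequence in RefSeq (GRCm38.p6), with the seed, bases 2 to 8, in capitals, reads as follows. It is the product of 2 genes, Mir181a-1 at chr1:137966468-137966490 and Mir181a-2 at chr2:38852741-38852763, both on the plus strand.
miR-181a-5p: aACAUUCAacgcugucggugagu

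The letters TGAATGT, which pair with that seed, were searched for on the sense strand of the longest annotated 3' UTR of each gene. They were found in 7 of the 36 members, 19.4%, all 7 of them among the 29 tested, 24.1%, and in 18.4% of the 12847 tested genes with a 3' UTR of at least 50 bases. The members with a match were Lamc1, Col4a1, Col4a4, Itga1, Itga2, Itga3 and Plec. Itga1 had 2 matches and each of the other 6 had 1. The 2 members whose test passed and whose 3' UTR held the letters went in opposite directions, Itga1 lower and Col4a1 higher. Their matches are printed with 12 bases before and 8 after, TGAATGT in capitals and all on the minus strand of GRCm38. The Itga1 matches lie at chr13:114958754-114958780 and chr13:114955086-114955112 and are followed by an A, which makes them of the 8mer kind. The Col4a1 match lies at chr8:11198997-11199023 and has no A there.
Itga1, first: aattacaatgaaTGAATGTacggtatc
Itga1, second: taaaactgcactTGAATGTagaagttc
Col4a1: acatcaggccacTGAATGTgaaacacc

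A match is a description of letters and not a measured binding site. Lamb1, Hspg2 and Col4a2 also passed the test and held no match in their longest 3' UTR. Among the members that held a match and did not pass the test, the log2 fold change was 0.36 ± 0.11 (SE) for Lamc1, -0.20 ± 0.36 for Col4a4, -0.13 ± 0.15 for Itga2, -0.12 ± 0.12 for Itga3 and -0.29 ± 0.13 for Plec.

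Levels of the members spanned several orders of magnitude, as the plot of TPM by gene shows. Because TPM is scaled per length, it allows genes to be compared with each other. By mean TPM over the 4 libraries the order began with Itga6 at 129, Dag1 at 112 and Itgb1 at 95.4. Next came Cd151 at 38.5, Plec at 33.9, Agrn at 31.2, Itgb4 at 29.4 and Lamb3 at 27.3. The ranges over the 4 libraries overlapped between all neighbours in this order other than Itgb1 and Cd151. Laminin chains summed to 51.5 and 40.8 TPM in the control libraries and to 29.6 and 41.5 TPM in the mimic libraries. Collagen IV chains summed to 0.51 and 0.39 TPM in control and 2.06 and 2.01 TPM with the mimic, the lowest of the 6 groups by level in every library.

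**Figure D1:**
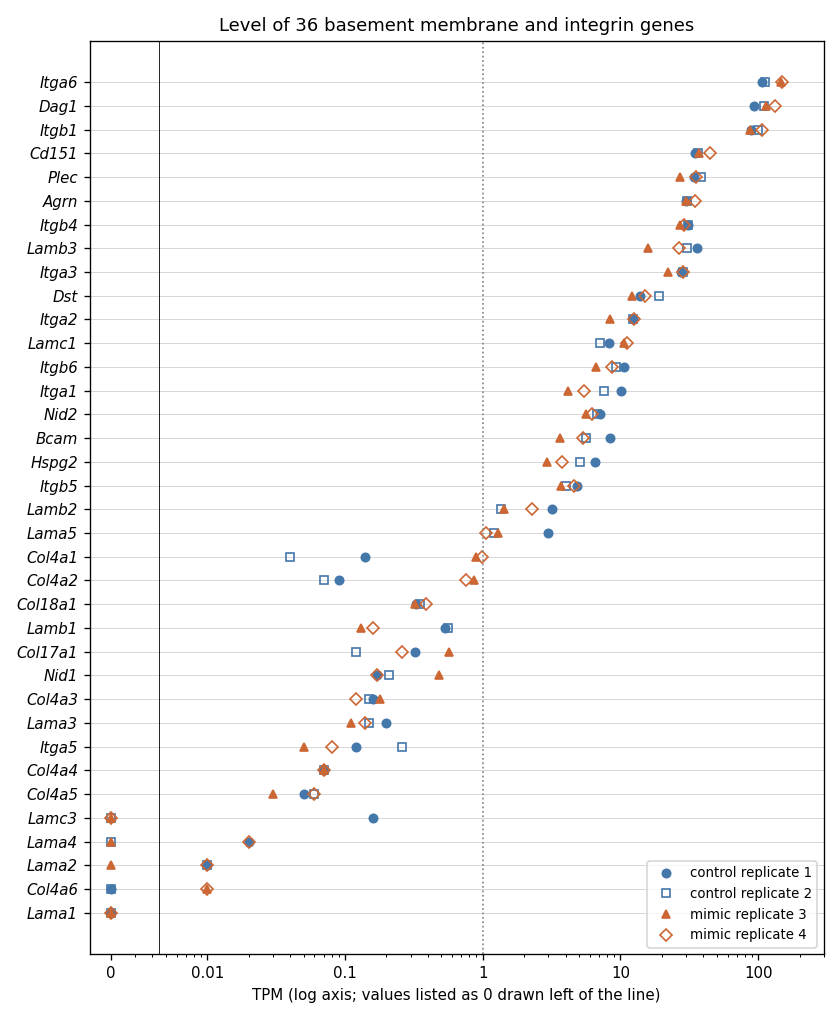
TPM of the 36 genes in each library on a log axis, ordered by mean level, with values listed as 0 drawn left of the line. Col4a1 and Col4a2 are the rows in which both mimic libraries lie far right of both control libraries, and Lamb1 is the reverse.

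The label of the cultures, intestinal epithelium, was checked against marker genes. The 7 epithelial markers, among them Epcam at 615 to 713 TPM, summed to 2899 and 2919 TPM in the control libraries and to 2592 and 3072 TPM in the mimic libraries. Of the 7, 4 had a log2 fold change below 0 and 3 above, and edgeR's quasi-likelihood test called 0. The lowest was Krt18 at -0.60 ± 0.17 (SE) and the highest Cdx2 at 0.32 ± 0.09, both without overlap in normalized CPM. DESeq2 called 1 lower and 1 higher. Of 10 mesenchymal markers, Col1a2, Col3a1, Dcn and Lum had 0 counts in all libraries. The list summed to between 2.77 and 4.46 TPM in control and between 4.52 and 7.45 TPM with the mimic, most of it Vim at 2.24 to 6.82 TPM. Among 4 endothelial markers, Cdh5, Kdr and Emcn had 0 counts throughout and the sum was at most 0.39 TPM. The 5 leukocyte markers summed to at most 1.58 TPM. In these bulk libraries fewer cells of a type and less RNA per cell cannot be told apart.

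The members were compared between mimic and control with edgeR's quasi-likelihood test, fitted on all tested genes and with Benjamini-Hochberg adjustment over all of them. At an adjusted p under 0.05, 3 of the 29 tested members were lower with the mimic, where 2.29% of all tested genes were. Higher with the mimic were 2 members, where 1.28% of all genes were. Because the members were chosen with earlier results of these data known, setting them beside all genes is not an independent comparison. With a change of at least 2-fold as a further condition, 1 member was lower, Lamb1, beside 1.47% of all genes, and 2 were higher, Col4a1 and Col4a2, beside 0.589%. The remaining 24 tested members did not pass, although 11 of the 29 had an unadjusted p under 0.05, as did 4250 of all 17155 tested genes. Of the 29, 21 had a log2 fold change below 0 and 8 above, with a median of -0.14 beside -0.012 over all genes. Normalized CPM, the counts scaled to the size of the library, of both mimic libraries lay below both control libraries in 15 of the 29, beside 29.5% of all genes. They lay above in 7, beside 28.9%.

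The filter left out 7 members, which had between 0 and 17 counts in every library. They were the laminin chains Lama1, Lama2, Lama4 and Lamc3, the collagen IV chains Col4a5 and Col4a6, and the fibronectin receptor subunit Itga5. None of them is compared between the groups, since such counts cannot show a difference.

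**Figure D2:**
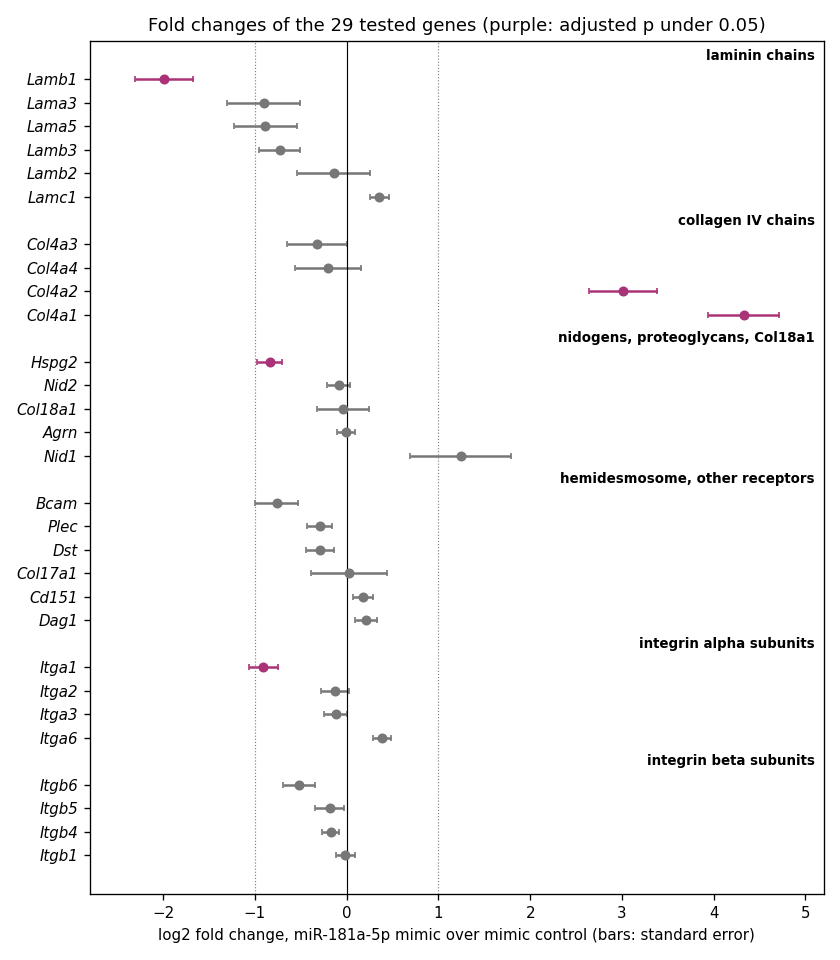
Log2 fold change, miR-181a-5p mimic over mimic control, of the 29 tested genes by protein group, with the standard error as bars and the genes at an adjusted p under 0.05 in purple. Col4a1 and Col4a2 stand at 4.33 and 3.01, Lamb1 at -1.99, and most other members within 1 of 0.

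Collagen IV is a triple helix, and the Col4a1 and Col4a2 chains build its most widespread form. Col4a1 had 6 and 4 expected counts in control replicates 1 and 2 and 97 and 101 in mimic replicates 3 and 4. The same libraries gave 0.14, 0.04, 0.9 and 0.99 TPM. Both mimic libraries lay far above both control libraries. Mean normalized CPM was 0.143 ± 0.0194 (SD, n = 2) in control and 2.97 ± 0.184 with the mimic. This was a log2 fold change of 4.33 ± 0.38 (SE), a 20.1-fold rise, with an adjusted p of 0.00499 by edgeR's quasi-likelihood test.

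Col4a2 had 11 and 11 expected counts in control and 68 and 106 with the mimic. In TPM these libraries stood at 0.09 and 0.07 against 0.87 and 0.76. The groups did not overlap on either scale, but the order of the 2 mimic libraries differed between counts and TPM. Col4a2 thus rose 8.06-fold, by 3.01 ± 0.37 (SE) on the log2 scale, with an adjusted p of 0.011 in the same fit. Control counts this low leave the size of both folds imprecise, and even with the mimic the chains stayed under 1 TPM.

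None of the other collagen IV chains passed the test. Col4a3 and Col4a4, which build the collagen IV of kidney and lung membranes, had 27 to 44 and 18 to 24 counts per library. Their log2 fold changes were -0.33 ± 0.33 (SE) and -0.20 ± 0.36, with adjusted p of 0.57 and 0.768. Col4a5 had at most 11 counts and Col4a6 at most 2.

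Genes that mark cells known to make collagen IV are given above, with Col1a2, Col3a1, Cdh5 and Kdr at 0 counts in all 4 libraries and Col1a1 at 2 or 3. Vim, the mesenchymal marker with the highest level, had 4.33 and 3.52 normalized CPM in control and 4.69 and 6.88 with the mimic. Both mimic libraries lay above both control libraries, with a log2 fold change of 0.56 ± 0.25 (SE) and an adjusted p of 0.215. Pecam1 had 10 and 8 against 11 and 27 counts, and its normalized CPM was also higher in both mimic libraries, with an adjusted p of 0.234. Other mesenchymal markers did not rise. Pdgfra had 17 and 7 counts in control and 2 and 0 with the mimic. Acta2 had 13 and 11 against 11 and 10 counts. Pdgfrb had 61 and 29 against 37 and 50 counts, a log2 fold change of 0.01 ± 0.35 (SE). The part of such cells in the rise of Col4a1 and Col4a2 was not tested.

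Col4a1 and Col4a2 lie head to head on chromosome 8. In the GRCm38 annotation of GENCODE, Col4a1 spans chr8:11198423-11312826 on the minus strand and Col4a2 chr8:11312805-11449287 on the plus strand. Their annotated starts are 21 bases apart and the genes overlap by 22 bases, which is the shortest distance among the collagen IV pairs. Col4a3 and Col4a4 start 72 bases apart and Col4a5 and Col4a6 start 1309 bases apart. The promoter windows of the risen pair in RefSeq (GRCm38.p6), 250 bases before to 50 after each start, share 78 bases. They are printed because these 2 members moved together and the windows are in part the same DNA. Capitals mark CCAAT (or ATTGG on the other strand) and GGGCGG (or CCGCCC), searched on both strands. The windows are chr8:11312777-11313076 on the minus strand for Col4a1 and chr8:11312555-11312854 on the plus strand for Col4a2.
Col4a1: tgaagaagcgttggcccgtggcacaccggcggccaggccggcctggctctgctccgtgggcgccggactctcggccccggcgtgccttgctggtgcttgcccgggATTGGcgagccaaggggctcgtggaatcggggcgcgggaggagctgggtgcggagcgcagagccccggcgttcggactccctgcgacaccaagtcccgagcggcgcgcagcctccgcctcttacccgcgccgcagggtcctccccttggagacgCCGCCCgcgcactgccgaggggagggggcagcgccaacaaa
Col4a2: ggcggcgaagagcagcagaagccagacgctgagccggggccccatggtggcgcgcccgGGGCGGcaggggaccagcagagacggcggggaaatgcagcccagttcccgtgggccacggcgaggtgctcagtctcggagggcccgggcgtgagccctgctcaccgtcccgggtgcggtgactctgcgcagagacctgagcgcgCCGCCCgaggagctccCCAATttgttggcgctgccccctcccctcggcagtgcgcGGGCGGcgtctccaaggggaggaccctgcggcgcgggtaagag

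Each window held 1 CCAAT match, as did 37.4% of 32851 promoter windows of the same length with at least 1. The GC box letters GGGCGG were found once for Col4a1 and 3 times for Col4a2, and 35.7% of all windows held them. The Col4a1 match and 1 of those of Col4a2 are the same 6 bases of the shared stretch, and no match overlapped one of another motif. TATAAA, searched on both strands as well, was in neither window and in 13.6% of all. These windows were rich in G and C, 74.0% and 73.7% of bases, where the median over all windows was 52.7%.

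None of the other genes tested around the pair was called higher. Within 250 kb of either gene, 10 other genes were tested, and their log2 fold changes ran from -1.07 to 0.25. The test was passed by 1 of them, Irs2, an insulin receptor adaptor, which fell by 1.07 on the log2 scale (SE 0.14, adjusted p 0.0127 by edgeR's quasi-likelihood test). Rab20, the nearest at 4230 bases beyond Col4a2, had a log2 fold change of -0.36 ± 0.20 (SE).

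**Figure D3:**
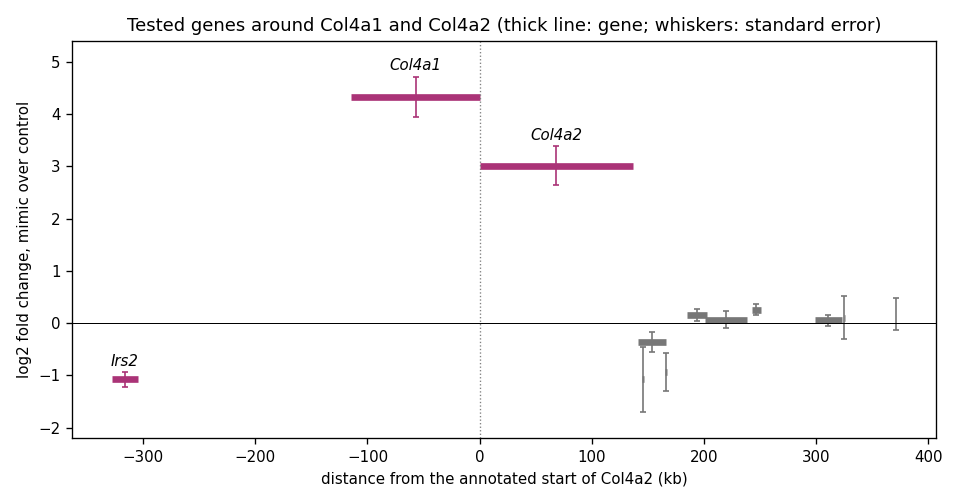
Log2 fold change, mimic over control, of each tested gene around Col4a1 and Col4a2 against distance in kb from the annotated start of Col4a2, with gene extent as thick lines, standard errors as whiskers and genes at an adjusted p under 0.05 in purple. Col4a1 and Col4a2 meet at 0 and stand at 4.33 and 3.01, Irs2 is at -1.07, and the other genes run from -1.07 to 0.25.

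Laminin chains were the group with the lowest median, a log2 fold change of -0.81 over the 6 tested of 10 listed. The test was passed by 1, Lamb1. An unadjusted p under 0.05 was found for 4, and for 4250 of all 17155 tested genes. Among the 4 was Lamc1, whose value was above 0. Lamb1, the beta chain that joins Lama5 and Lamc1 in the main laminin of many epithelia, lies at chr12:31265234-31329644. It had 88 and 81 expected counts in control and 16 and 25 with the mimic. Both mimic libraries were below both control libraries. The fold change was -1.99 ± 0.32 (SE) on the log2 scale, 3.98-fold lower, with an adjusted p of 0.0236 by edgeR's quasi-likelihood test. Without mimic replicate 3 the adjusted p was 0.0681. In TPM the level was low in every library, between 0.13 and 0.56.

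The partners of Lamb1 did not pass the test. Lama5 had 727 and 268 counts in control and 203 and 303 with the mimic. In counts control replicate 2 lay between the mimic libraries, and control replicate 1 alone was high. On normalized CPM the groups stood apart, 19.0 and 8.65 against 6.48 and 8.51, but only narrowly. In TPM they overlapped, 2.99 and 1.21 against 1.3 and 1.06. The log2 fold change was -0.89 ± 0.34 (SE) with an adjusted p of 0.168, and -0.21 without control replicate 1. The gamma chain Lamc1 had 44.2 and 39.8 normalized CPM in control and 54.8 and 52.6 with the mimic. These groups did not overlap, in the direction opposite to Lamb1, with a log2 fold change of 0.36 ± 0.11 (SE) and an adjusted p of 0.102.

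Lama3 and Lamb3 are chains of the laminin that hemidesmosomes bind. Lamb3 had the highest level of all laminin chains, 36.2 and 30.4 TPM in control and 15.9 and 26.7 TPM with the mimic. In normalized CPM it was 111.5 and 99.2 against 47.0 and 80.0, with mimic replicate 3 lowest and no overlap. The log2 fold change of Lamb3 was -0.73 ± 0.22 (SE) and its adjusted p 0.106. Without mimic replicate 4 the adjusted p was 0.00185, and it was also under 0.05 with edgeR's exact and likelihood-ratio tests and with DESeq2. Lama3, at 19 to 66 counts per library, gave -0.90 ± 0.40 on the log2 scale. Both values were negative, and neither chain passed the quasi-likelihood test on all libraries. Lamb2, a beta chain of kidney and neuromuscular basement membranes, had overlapping groups and a log2 fold change of -0.14 ± 0.39.

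Perlecan (Hspg2) is the large heparan sulfate proteoglycan of basement membranes, at chr4:137468769-137570630. It had 2765 and 1854 expected counts in control and 1065 and 1415 with the mimic. Both mimic libraries lay below both control libraries, and the same held in TPM, 6.57 and 5.07 against 2.94 and 3.77. Mean normalized CPM was 66.0 ± 8.69 (SD, n = 2) in control and 36.9 ± 4.06 with the mimic. Perlecan was 1.79-fold lower, a log2 fold change of -0.84 ± 0.13 (SE), with an adjusted p of 0.0236 by edgeR's quasi-likelihood test. It was 0.0746 when genes with low counts were kept in the fit.

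Agrin (Agrn), the other heparan sulfate proteoglycan of the list, was not called. Its normalized CPM was 149.0 and 150.3 in control and 140.7 and 158.1 with the mimic, so that the control libraries lay between those of the mimic. The log2 fold change was 0.00 to 2 decimals, with a standard error of 0.099, and its sign depended on the scaling. Nid2, the nidogen with the higher level, stood at 6.42 TPM on average and had a log2 fold change of -0.09 ± 0.13 (SE). Nid1 had 22 and 23 counts in control against 74 and 27.6 with the mimic. Mimic replicate 3 alone was far from the others, and the log2 fold change was 1.24 ± 0.55 with an adjusted p of 0.213, and 0.28 without that library. With 1 library left out it ran from 0.28 to 1.86. Col18a1, whose end is cut off as endostatin, had 40 to 54 counts per library and overlapping groups.

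Of the integrin alpha subunits, Itga1 fell. It pairs with Itgb1 in a receptor for collagens, collagen IV among them, and lies at chr13:114953096-115101964. Expected counts were 2252 and 1369 in control and 804 and 1041 with the mimic. Both mimic libraries lay below both control libraries, with control replicate 1 highest. Mean normalized CPM was 51.5 ± 10.3 (SD, n = 2) in control and 27.5 ± 2.53 with the mimic. Itga1 was thus 1.87-fold lower, a log2 fold change of -0.91 ± 0.15 (SE), with an adjusted p of 0.0304 by edgeR's quasi-likelihood test. With genes of low counts kept in the fit the adjusted p was 0.0831.

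The annotation places other genes inside Itga1, and its counts were not whole numbers, so part of the reads had been divided between genes by the authors' counting. Pelo overlaps Itga1 by 1832 bases on the same strand and had a log2 fold change of 0.34 ± 0.16 (SE). Gm10734, antisense to Itga1, overlaps it by 1487 bases and gave 0.45 ± 0.23. Neither passed the test, and both had the opposite sign to Itga1. Gm49395 overlaps by 66649 bases on the same strand, held at most 36.8 counts and gave -1.05 ± 0.36. Whether the counting used strand is not given in the sources used here.

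Itga2, the other collagen-binding alpha subunit and the neighbour of Itga1 at a distance of 20995 bases, did not pass the test. Its normalized CPM was 63.0 and 65.7 in control and 49.6 and 68.2 with the mimic, with the control libraries between those of the mimic. The log2 fold change was -0.13 ± 0.15 (SE). Itga3, a laminin receptor subunit that pairs with Itgb1, also had overlapping groups, 89.2 and 104.5 against 81.7 and 96.4 normalized CPM, and gave -0.12 ± 0.12.

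Itga6, the laminin receptor subunit that pairs with Itgb4 in hemidesmosomes, had the highest level of all members and missed the threshold. It was 108 and 111 TPM in control and 147 and 150 TPM with the mimic. The groups did not overlap, on this scale or in normalized CPM, 297 and 307 against 407 and 380. With a log2 fold change of 0.38 ± 0.10 (SE) and an adjusted p of 0.074, it was the first member outside the threshold. It was 0.0372 without control replicate 2, 0.0126 with DESeq2 and 0.389 without mimic replicate 3.

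The beta subunits gave no call in the quasi-likelihood test, and DESeq2 called none. An unadjusted p under 0.05 was found for 1 of 4, and for 4250 of all 17155 tested genes. Itgb1, the partner of Itga1, Itga2 and Itga3 and the subunit with the highest level among the 4, had 274 and 295 normalized CPM in control and 264 and 300 with the mimic. The groups overlapped, and the log2 fold change was -0.01 ± 0.11 (SE). Itgb4, the partner of Itga6, had 124 and 127 against 108 and 114 normalized CPM. These groups did not overlap, but the log2 fold change was only -0.17 ± 0.09, opposite in sign to that of Itga6. Itgb6, an epithelial subunit of a receptor that activates latent TGF-beta, gave -0.52 ± 0.17 with an adjusted p of 0.127. It passed without control replicate 2 and without mimic replicate 4, with adjusted p of 0.0326 and 0.0497. Itgb5 gave -0.18 ± 0.16.

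**Figure D4:**
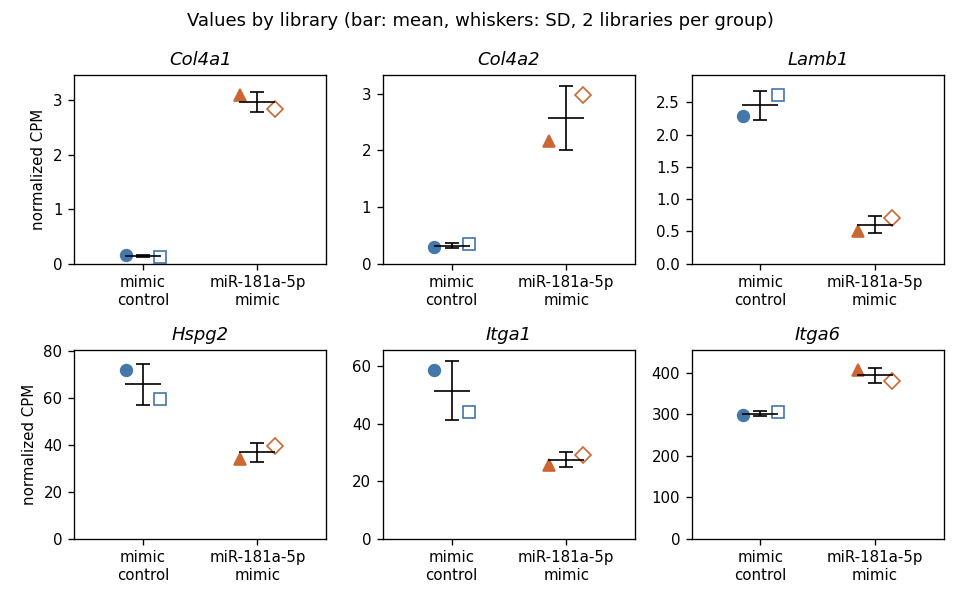
Normalized CPM in each library (points), with the group mean as a bar and the SD as whiskers for 2 libraries per group, for the 5 called genes and Itga6, on axes that start at 0. The groups do not overlap in any of the 6 panels, and the distance between them is greatest relative to the level for Col4a1, Col4a2 and Lamb1.

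The hemidesmosome proteins and other laminin receptors gave no call in the quasi-likelihood test. An unadjusted p under 0.05 was found for 1 of 6, Bcam, and for 4250 of all 17155 tested genes. Bcam also passed edgeR's exact and likelihood-ratio tests. DESeq2 called none. Dag1, dystroglycan, a receptor for laminin, perlecan and agrin, had 374 and 450 normalized CPM in control and 461 and 494 with the mimic. The groups stood apart by a margin smaller than the gap between the control libraries, with a log2 fold change of 0.21 ± 0.12 (SE). Plec, plectin, had 364 and 430 against 292 and 356, and a log2 fold change of -0.29 ± 0.13. Dst, dystonin, gave nearly the same value, -0.29 ± 0.15. It was -0.51 with an adjusted p of 0.033 without control replicate 1, and -0.03 without control replicate 2. Cd151, a tetraspanin that associates with laminin-binding integrins, had 44.3 and 48.2 against 49.9 and 54.9 normalized CPM and gave 0.18 ± 0.11. Bcam, a receptor of the Lama5 chain, had 612 and 311 counts in control and 221 and 296 with the mimic, with control replicate 1 apart from the rest. Its log2 fold change was -0.76 ± 0.24 with an adjusted p of 0.111, and its adjusted p was 0.00804 without control replicate 2. Col17a1, the collagen of skin hemidesmosomes, had 15 to 28 counts per library and overlapping groups.

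Chains that work as partners could be set side by side. For the collagen-binding pair Itga1 and Itgb1, the log2 fold changes were -0.91 and -0.01, and mean TPM over all libraries was 6.81 and 95.4. For the laminin-binding pair Itga6 and Itgb4 they were 0.38 and -0.17, with mean TPM of 129 and 29.4. For the Lama5, Lamb1 and Lamc1 chains they were -0.89, -1.99 and 0.36, with mean TPM of 1.64, 0.345 and 9.31. The values within each set were not tested against each other.

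The 2 mimic libraries did not sit alike for these genes. Mimic replicate 4 had the higher normalized CPM in 21 of the 29 tested members, 72.4%, where it did so in 50.3% of all tested genes. Control replicate 1 was the higher control library in 15 of 29, 51.7%, beside 50.9% of all genes. Lama5, Lamb2, Lamb3 and Bcam were among the members with a wide gap between libraries of 1 group. With 1 library left out, the log2 fold change ran from -2.25 to -1.79 for Lamb1 and from -0.96 to -0.70 for Hspg2. For Itga1 it ran from -1.09 to -0.69. Lama5 ran from -1.33 to -0.21 and Lamb3 from -1.16 to -0.39. Itgb6 ran from -0.75 to -0.32 and Bcam from -1.05 to -0.39. Col4a1 and Col4a2 ran from 4.22 to 4.47 and from 2.76 to 3.22. The part of any feature of a single library in these values was not tested.

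Other basement membrane proteins, a list of 20 genes that excludes the members, had 16 tested genes. Of these, 1 was higher and 0 were lower, 6.25% called beside 3.57% of all tested genes. An unadjusted p under 0.05 was found for 7, and for 4250 of all 17155 tested genes. DESeq2 called 2 higher and 1 lower. Its share over all genes is not given here, for this list or those below. Fbln1, the secreted glycoprotein fibulin 1 that binds laminin and nidogen, rose. It had 1804 and 1889 expected counts in control and 3191 and 3540 with the mimic, without overlap. The log2 fold change of Fbln1 was 0.90 ± 0.13 (SE) with an adjusted p of 0.0188 by edgeR's quasi-likelihood test, and of 0.0547 with genes of low counts kept in the fit. Fn1, fibronectin, had at most 4 counts, and Sparc, a collagen IV binding protein, at most 2.

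Genes that fold, cross-link or cut collagen, 14 tested of 22, held 1 call, Mmp14, which fell. This was 7.14% of those tested, beside 3.57% of all tested genes. Mmp14, a membrane-bound protease that cleaves several matrix proteins, had 983 and 736 counts in control and 11 and 24 with the mimic, without overlap. Its log2 fold change was -5.56 ± 0.25 (SE) with an adjusted p of 0.000328. The enzymes and chaperones of collagen folding were not called. P4ha1, a prolyl hydroxylase subunit, had 2368 and 2668 against 1306 and 2050 counts, and Serpinh1, the collagen chaperone, at most 1 count in any library. The secreted gelatinases Mmp2 and Mmp9 had 0 counts.

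Adaptors and kinases of integrin adhesions, 21 tested of 25, held 1 call, Tns2, which fell. This was 4.76% of those tested, near the 3.57% of all tested genes. In this list 5 had an unadjusted p under 0.05, beside 4250 of all 17155 tested genes, and DESeq2 called 2 lower and 0 higher. Tns2, a tensin that connects integrins to actin, had 28.7 and 29.4 normalized CPM in control and 12.5 and 18.2 with the mimic. Its log2 fold change was -0.92 ± 0.18 (SE) with an adjusted p of 0.0417, and the adjusted p was 0.0873 without mimic replicate 3 and 0.107 with genes of low counts kept. Those not called but with an unadjusted p under 0.05 were Tln2 at -0.58 ± 0.15, Bcar1 at -0.34 ± 0.09, Vcl at -0.31 ± 0.11 and Itgb1bp1 at 0.48 ± 0.16. Also not called were Tln1, talin, at -0.16, Fermt1, the epithelial kindlin, at 0.02, Ilk at 0.21 and Ptk2, the focal adhesion kinase, at 0.23 on the log2 scale.

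Integrin-associated tetraspanins and genes tied to hemidesmosomes and keratins, 9 tested of 11, held 3 calls. This was 33.3% of those tested, beside 3.57% of all tested genes. Cd9, a tetraspanin that associates with integrins, had 38.6 and 33.3 normalized CPM in control and 58.2 and 62.4 with the mimic, and rose by 0.75 ± 0.11 (SE) on the log2 scale with an adjusted p of 0.0211. Tspan1, another tetraspanin, had 41.1 and 36.2 normalized CPM in control and 61.6 and 81.8 with the mimic, and rose by 0.89 ± 0.15 with an adjusted p of 0.0291. Eppk1, epiplakin, a keratin-binding relative of plectin, had 1001 and 1021 against 528 and 607 normalized CPM and a log2 fold change of -0.83 ± 0.12 with an adjusted p of 0.016. Without mimic replicate 3 the adjusted p of Eppk1 was 0.109, and with genes of low counts kept in the fit it was 0.0655 for Cd9 and 0.0816 for Tspan1. Counts of Cd9 and Eppk1 were not whole, so some of their reads had been shared with other genes.

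Neither of the last lists held a call in the quasi-likelihood test, which called 3.57% of all tested genes. Over all 17155 tested genes, 4250 had an unadjusted p under 0.05. Of 14 other integrin subunits 8 were tested, 3 had an unadjusted p under 0.05 and DESeq2 called 1 lower, while the quasi-likelihood test called 0. Itgav, the alpha subunit that pairs with Itgb5 and Itgb6, gave 0.09 on the log2 scale. Of 18 dystroglycan partners and glycosylation genes 15 were tested, with 3 at an unadjusted p under 0.05, 0 called by the quasi-likelihood test and 1 lower by DESeq2. Pomk, the kinase that primes the laminin-binding sugar of dystroglycan, came nearest with a log2 fold change of -0.64 and an adjusted p of 0.0545.

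How far the called members rested on the test is shown in the plot of settings. Across the fits to counts, Col4a1 and Col4a2 kept an adjusted p of at most 0.0131 and 0.0299. Over the same fits the highest adjusted p was 0.0681 for Lamb1, 0.0746 for Hspg2 and 0.0831 for Itga1. On log2(TPM + 1) without a filter, limma gave Col4a1 0.84 and Col4a2 0.75, with adjusted p of 0.264 and 0.262, a scale on which changes of genes under 1 TPM are understated. No sign of a called member changed in any setting.

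**Figure D5:**
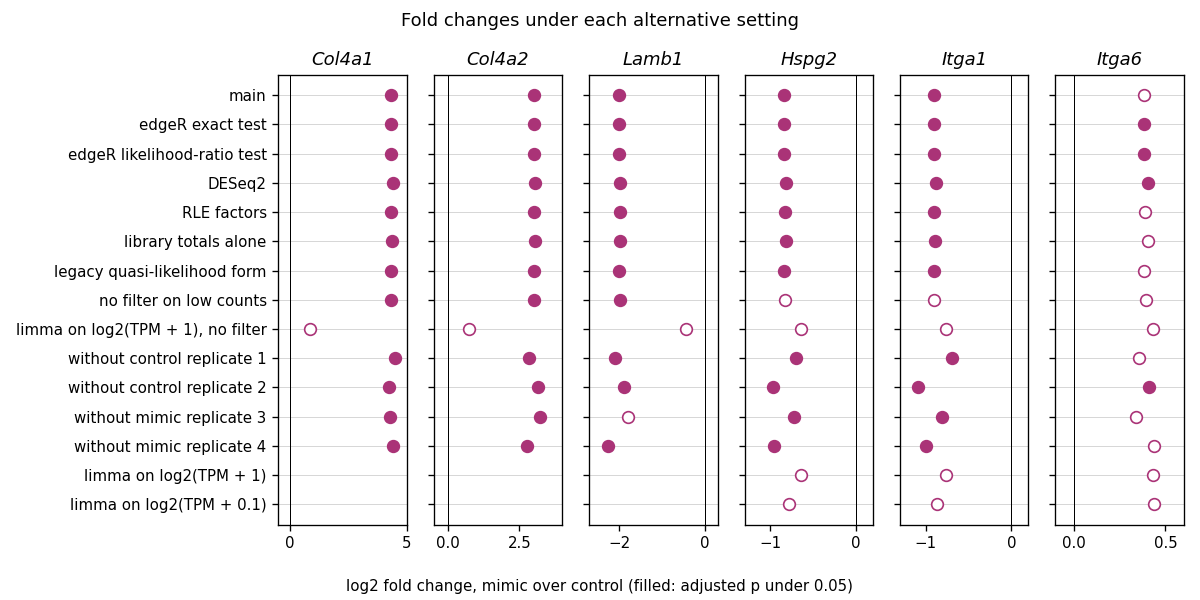
Log2 fold change, mimic over control, of the 5 called genes and Itga6 under each setting, filled where the adjusted p was under 0.05. Points for Col4a1 and Col4a2 stay near 4.33 and 3.01 and filled in all fits to counts, and lie at 0.84 and 0.75 on the log2(TPM + 1) scale without a filter, while no value is drawn where a gene was below the TPM filter. Points for Hspg2 and Itga1 are open in the limma fits.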

How the data were processed

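Single reads had been trimmed (Trimmomatic) and quantified by RSEM against transcripts of GRCm38 (mm10). The authors deposited expected counts per gene, which are not normalized, and TPM with equal column sums. The labels name poly(A) enrichment and the supplemental methods ribosomal RNA depletion. The annotation release and tool versions are not given in the sources used here. Neither table was used whole: 3 columns in each carry names that none of the labels has.

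Expected counts were rounded and tested with edgeR 4.0.16 (R 4.3.3): filterByExpr, TMM factors, glmQLFit (legacy = FALSE) and glmQLFTest, 2 control against 2 mimic libraries, with Benjamini-Hochberg adjustment over 17155 genes. Standard errors are the log2 fold change divided by the root of F. Normalized CPM are rounded counts over TMM-scaled totals. The code was checked on simulated counts. With 14 alternatives (DESeq2 1.42.0, limma 3.58.1 on log2 TPM with a pseudocount of 1 or 0.1, filtered at 1 TPM in 2 libraries, other tests, factors and filters, and each library left out), the closing section gives the effects. Leaving 1 library out assumes that the lone library varies like the other group.

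Symbols were matched for 55141 of 55487 genes. Coordinates, neighbours and 3' UTRs came from GENCODE release 21 for mouse (GRCm38), promoters and the miRNA from RefSeq (GRCm38.p6). The members and lists were chosen with earlier results of these data known. Values per library are given for called members, the 8 of highest mean TPM and partner chains, and from the other lists for called genes of at least 1 TPM in a group. Other genes named, such as Irs2, Pomk, P4ha1 and Fn1, were chosen after their values were seen. Some genes of the other lists are not reported here.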

Additional observations from a re-analysis of the deposited data

How the results depend on the processing

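Col4a1, Col4a2 and Lamb1, at under 1 TPM, rest on few counts, and 2 libraries per group limit all tests. No paired analysis was possible because the groups share no replicate number.

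Lower members numbered 3, against 5 with edgeR's exact test, 5 with its likelihood-ratio test, 1 with no filter on low counts, 0 in each of 3 limma fits on log2 TPM (where 5, 5 and 7 members of either direction had an unadjusted p under 0.05), and 2 to 7 with 1 library left out. Higher members numbered 2, against 3 with the exact test, 3 with the likelihood-ratio test, 3 with DESeq2 and 0 in the 3 limma fits. Members lower by 2-fold numbered 1, against 0 in the limma fits and 0 to 4 with 1 library left out. Members higher by 2-fold numbered 2, and 0 in the limma fits. Col4a1, Col4a2 and Lamb1 were below the filter of the first 2 limma fits. The legacy form of the quasi-likelihood fit, added after the data were seen, changed none of these counts. The share of all tested genes called in each alternative is not given here, so these counts are not set against it.

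Over the 6 companion lists together, 3 genes were lower, against 10 with the exact test, 10 with the likelihood-ratio test, 8 with DESeq2, 1, 1 and 0 in the limma fits, and 1 to 11 with 1 library left out. Higher genes numbered 3, against 0 with no filter, 0 in the limma fits, and 3 to 8 with 1 library left out. The share of all genes called in each alternative is not given here either, and the causes were not tested.

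Of 64 values of called members under the alternatives, 52 kept sign and call, 12 lost the call and 0 changed sign. Of 324 values of members not called, 17 passed the threshold and 25 changed sign. Agrn became 0.019 with DESeq2, 0.0045 with RLE factors, 0.020 with library totals alone, 0.0076 with no filter, and 0.096, 0.099 and 0.096 in the limma fits. Itgb1 became 0.0068 with DESeq2, 0.0089 with library totals alone, and 0.044, 0.045 and 0.044 in the limma fits. Col18a1 became 0.016 with limma and no filter. With 1 library left out the log2 fold changes ran from -0.62 to 0.63 for Lamb2, from -0.16 to 0.067 for Col18a1, from -0.28 to 0.37 for Col17a1, from -0.086 to 0.087 for Agrn, from -0.37 to 0.091 for Itga2, from -0.24 to 0.0024 for Itga3 and from -0.11 to 0.084 for Itgb1.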
